A study of Mus musculus with 7 samples.

Results

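GABA and glutamate are the main inhibitory and excitatory transmitters of the brain, and this account covers the genes for the subunits of their receptors as read in mouse brain and mouse kidney. Members were all probe sets whose single gene symbol in GEO's platform annotation named a subunit of a GABA-A, GABA-B, AMPA, kainate, NMDA, delta or metabotropic glutamate receptor. On the sense arrays 81 of 45037 probe sets qualified, for 39 of the 18193 genes measured. On the antisense arrays 4 of 5652 reverse probe sets qualified, for 3 genes. One of the 39, Grid2ip, was matched by its symbol but encodes a scaffold protein that binds a delta receptor and not a subunit, which leaves 38 subunit genes. Other subunit genes of these families were not analysed here.

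The study read total RNA of dissected mouse brain and of dissected mouse kidney on 7 Affymetrix arrays to set sense transcripts beside antisense transcripts. Brain RNA, from 8 µg of total RNA, was read on a 430A and a 430B array for sense and on a U74A and a U74B array for antisense. Kidney RNA, from 6.75 µg, was read on a 430 2.0 array for sense, which carries the probe sets of 430A and 430B, and on a U74A and a U74B array for antisense. The antisense values are those of reverse probe sets, picked by the submitters with the manufacturer's mask as pairing with RNA that runs opposite to the annotated transcript. Strain, age, sex and the number of animals are not given in the labels used here, and no treatment is named. With a single array per tissue and design there is no replicate error, nothing was tested and no p-value is given. Sense array type and tissue cannot be told apart, because brain and kidney were read on different designs.

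The preparations carried their tissues' markers. All 10 neuron markers were called higher in brain by at least 2-fold, and 9 of 10 markers of the proximal tubule were higher in kidney, the exception being Lrp2 by 1 probe set. Of 6 pituitary genes 4 were higher in brain, with growth hormone (Gh) at 5129.1 in brain and 33.8 in kidney. Of 7 retina genes none was called in either tissue, and their signals lay between 4.2 and 107.8 in brain and between 1.2 and 39.4 in kidney. Of 7 genes of peripheral nerve and adrenal chromaffin cells, 3 secretory granule genes were higher in brain; none was called in kidney, where the list lay between 8.8 and 49.9. The 100 probe sets present on both brain sense arrays were the only repeat reading of 1 tissue, and no receptor probe set was among them. The 98 above the median of both arrays differed between the arrays by an SD of 0.25 (log2). The repeat also held an offset: 430B read higher than 430A by a median log2 of 1.33.

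GABA-A receptors are chloride channels built of 5 subunits, most often alpha, beta and gamma, and other subunits such as delta take the gamma position in receptors outside the synapse. GABA-B receptors are coupled to G proteins. AMPA, kainate and NMDA receptors are cation channels of 4 subunits opened by glutamate, and the metabotropic glutamate receptors (Grm genes) are coupled to G proteins in groups I, II and III. In tissues other than brain, several of these subunits are known from endocrine, epithelial and renal cells.

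For the sense comparison each brain array was centred on the kidney array, and the fold change is brain over kidney after centring. A floor was set at the higher of both arrays' medians, which on the kidney scale was 186.4 for 430A and, for 430B, 28.6. Signals under it were raised to it, and the words at least before a fold mark a kidney signal below the floor. Signals are printed as deposited, so their plain ratio differs from the centred fold: centring multiplied it by 1.79 on 430A and divided it by 4.24 on 430B. A lower bound is one on the centred scale. A probe set was called at 2-fold or more with at least 1 tissue above the floor, and each gene took the value of the probe set whose percentile, averaged over both tissues, was highest. These bulk readings cannot tell fewer cells of a type apart from less RNA per cell.

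Most receptor genes stood higher in brain and none was called in kidney. Of the 39 genes, 22 (56.4%) were 2-fold or more higher in brain, 9 were within 2-fold and 8 were below the floor in both tissues. Among all 18193 genes measured, 12.9% were called for brain and 18.7% for kidney. Counting any probe set of a gene, 24 of the 39 had at least 1 called higher in brain. By family, 9 of 16 GABA receptor genes, 9 of 16 ionotropic glutamate receptor genes and 4 of 6 metabotropic ones were higher in brain. The median log2 ratio was 1.58 over all 39 genes, with those below the floor set to 0, and 0 over all genes measured. Over the 31 above the floor it was 1.73, against -0.08 for all genes above it; of these 31, 20 passed the floor through brain alone and 11 in both tissues, so the second median leans towards brain by construction.

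The number called rests on where the floor lies. It was 12 with the floor at the 75th percentile, where 6.03% of all genes were called for brain, and 10 with the 430A floor used for 430B, where 8.62% were. It was 34 with no floor, against 33.6% of all genes, and 10 of the 30 genes read on 430A alone, against 12.8%. Gabbr1, Gabrb1, Gabrb2, Gria1, Gria2 and Grm4 were called higher in brain under the main setting and the 7 other settings that kept both arrays.

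**Figure D1:**
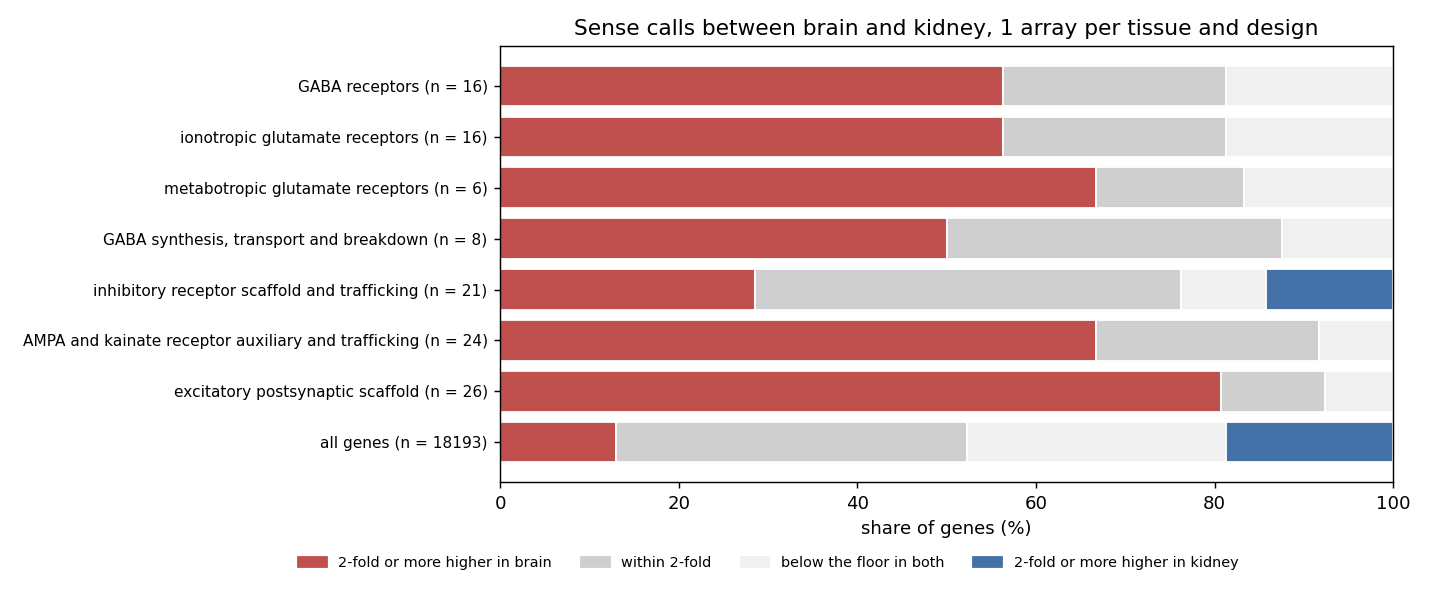
Share of genes (horizontal axis, percent) in each class of sense call, for the 3 receptor families, the 4 lists of synaptic partner genes and all 18193 genes; red marks genes 2-fold or more higher in brain, blue marks those higher in kidney, and the greys mark genes within 2-fold or below the floor. The receptor families have no blue segment, whereas all genes were called in 12.9% for brain and 18.7% for kidney.

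As deposited, 79 of the 81 receptor probe sets read higher in brain than in kidney. The exceptions were Grin3b and the 430A probe set of Grik3. This count depends on the scale, since all 42 on 430B read higher before centring, which divided their ratio by 4.24. After centring, Grik4 and certain 430B probe sets of Gabrb1 and Gabrg3 read lower in brain, and the remaining 430B probe sets still read higher. The share of all probe sets higher in brain as deposited is not given here. Brain signals of the 39 probe sets on 430A lay between 3.4 and 1744.2 with a median of 121, and the same probe sets read between 0.8 and 97.6 in kidney with a median of 15.4. On 430B the 42 probe sets lay between 8.7 and 2787.7 in brain (median 384.7) and between 0.4 and 243.2 in kidney (median 11.1). In brain 57 of the 81 were over the median of their array and 40 over its 75th percentile, whereas in kidney 67 were under the array's median of 38.8 and 1 was over its 75th percentile of 203.9. Of the 430A probe sets 15 of 39 (38.5%) were called higher in brain, against 11.7% of all 430A probe sets, and of the 430B probe sets 25 of 42 (59.5%), against 11.1%. None was called higher in kidney, against 12.4% and 14.2% of all probe sets of these arrays.

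**Figure D2:**
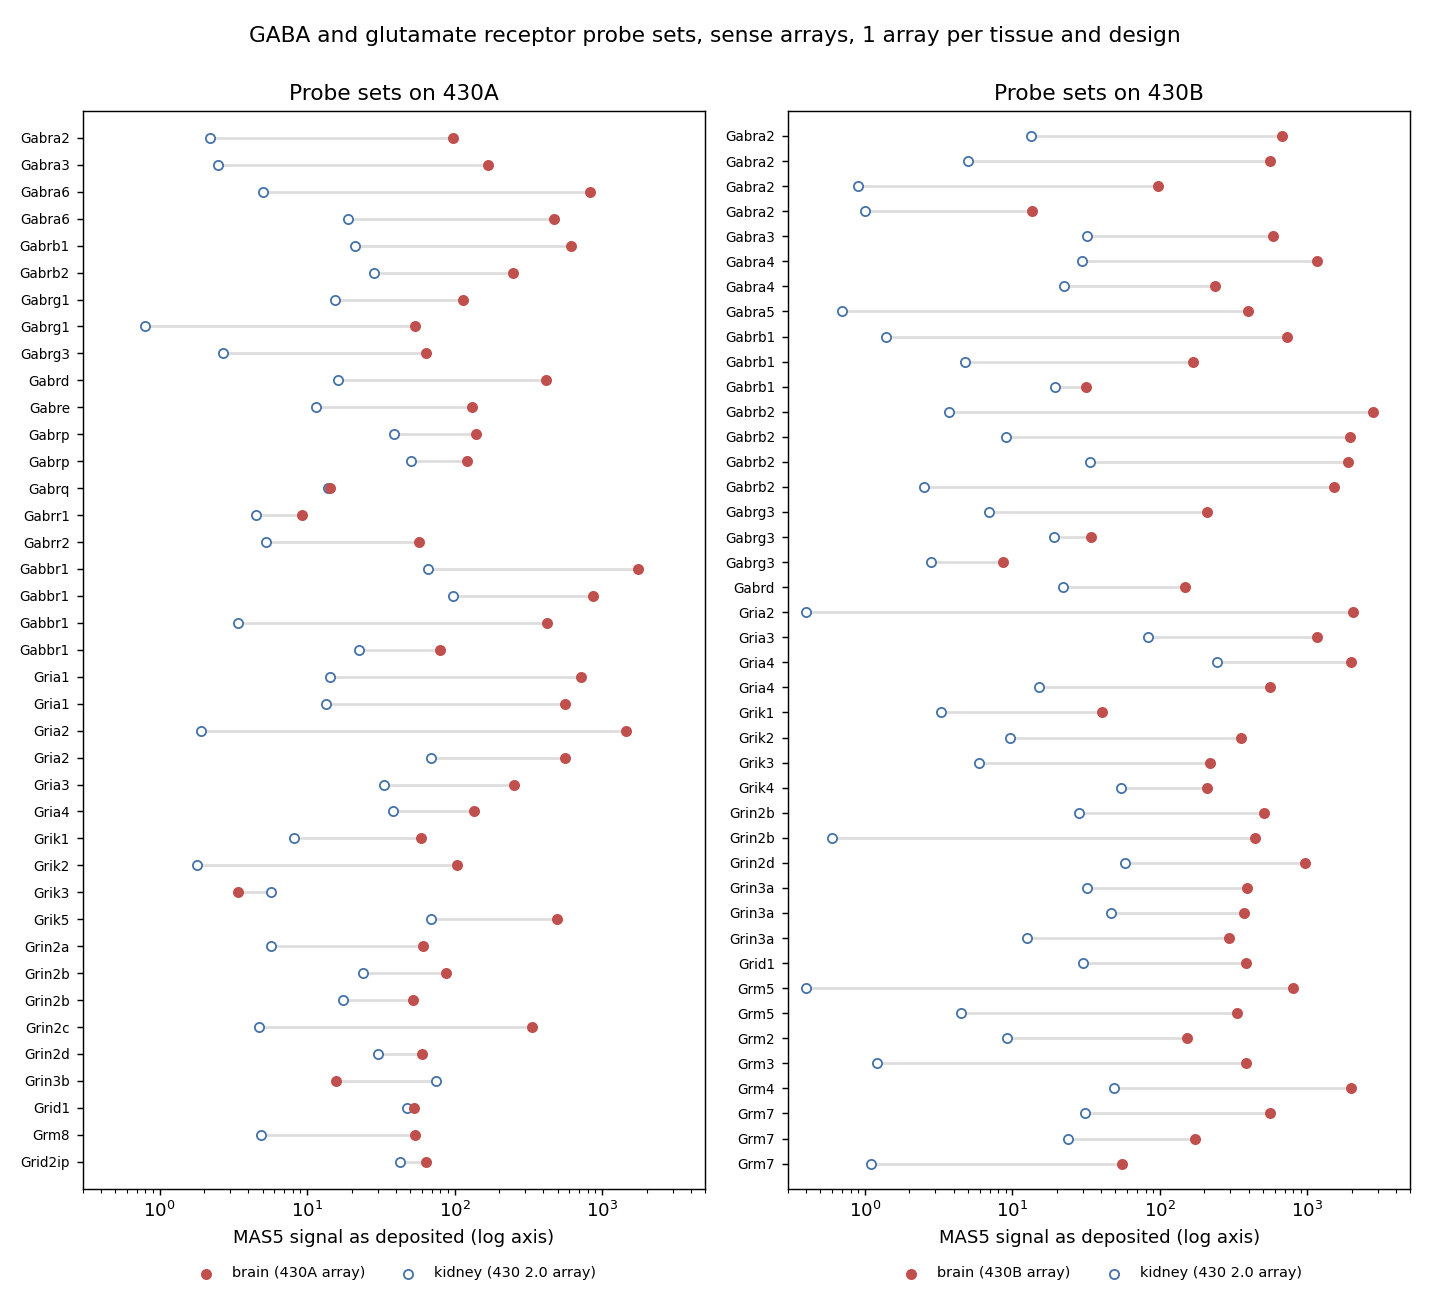
Deposited MAS5 signal (log axis) of each receptor probe set, 39 on 430A at left and 42 on 430B at right, with brain as filled red and kidney as open blue points; each line joins the values of 1 probe set and rows follow receptor class. Kidney points lie at 243.2 or less, and before centring 79 of 81 probe sets have the brain point to the right. On 430B these positions include the factor of 4.24 that centring removed.

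The GABA-A alpha subunits, which with the beta subunits form the GABA binding site, were higher in brain for all 5 genes measured. Gabra4 read 1170.5 in brain and 29.7 in kidney, 9.29-fold higher. A further Gabra4 probe set read 236.7 in brain against 22.3 in kidney, at least 1.95-fold and under the 2-fold line. The kidney signal of 29.7 lies just over the 430B floor and under the kidney array's median of 38.8, and with the 430A floor used for 430B the log2 ratio of Gabra4 was 0.57. Gabra6, the alpha subunit of cerebellar granule cells, read 833.7 and 473.7 in brain against 5 and 19 in kidney on its 2 probe sets, at least 8.02-fold and at least 4.55-fold higher. Gabra2 read 675.1 and 557.8 in brain against 13.3 and 5 in kidney on the 430B probe sets above the floor, at least 5.56-fold and at least 4.59-fold. Its other 3 probe sets were below the floor in both tissues, with brain at 97.7 or less. Gabra3 was 4.35-fold higher on 430B (586.4 in brain and 31.8 in kidney) and at least 1.61-fold on 430A (167.3 and 2.5). Gabra5, an alpha subunit abundant in the hippocampus, had 1 probe set, with 398.3 in brain against 0.7 in kidney, at least 3.28-fold. When 430B was given the 430A floor, only Gabra6 of these 5 stayed called.

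Both beta subunits were higher in brain. Gabrb2 was called on all 5 of its probe sets. Its 430B probe sets read 2787.7, 1958.4, 1898.7 and 1516.9 in brain against 3.7, 9.1, 33.5 and 2.5 in kidney, with folds of 13.4 and of at least 22.9, 16.1 and 12.5. Its 430A probe set read 249.3 in brain against 28.6 in kidney, at least 2.40-fold. The 4 high readings all came from 430B, and 3 of them from probe sets built on the same expressed sequence tag, so these 3 are not independent. Gabrb1 read 618 in brain against 21 in kidney on 430A, at least 5.94-fold, and 729.2 and 1.4 on 430B, at least 6.0-fold. Its 2 further 430B probe sets read 166.8 and 31.6 in brain against 4.8 and 19.3 in kidney, at least 1.37-fold for the first and below the floor for the second.

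The genes of these subunits lie in clusters: 13 of the 15 GABA-A genes measured have another of them within 2000000 bases in RefSeq, in 5 clusters. Gabra4 and Gabrb1 share the most closely packed site. Their annotated starts, the first listed one for Gabrb1, face each other on opposite strands of chromosome 5. The first 388 bases of the pair overlap, so each gene there has an annotated transcript antisense to it. Both were higher in brain on the sense arrays, and no reverse probe set for either was analysed here. Gabra6 and Gabrb2, neighbours on chromosome 11 and also on opposite strands, were both higher in brain. A promoter of each of these 4 genes is shown because the pairs were read in the same direction while the start regions shown differ. Each is a window of 300 bases across an annotated start, most of it upstream, from RefSeq on GRCm38.p6. Gabrb1 and Gabrb2 have further annotated starts, and the first listed is shown.

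Gabra4, chr5:71658259-71658558, minus strand: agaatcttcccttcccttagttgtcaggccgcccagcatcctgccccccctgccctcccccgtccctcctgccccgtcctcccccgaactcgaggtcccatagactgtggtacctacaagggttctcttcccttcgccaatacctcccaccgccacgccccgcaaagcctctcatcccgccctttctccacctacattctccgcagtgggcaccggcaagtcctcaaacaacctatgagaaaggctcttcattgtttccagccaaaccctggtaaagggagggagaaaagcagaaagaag
Gabrb1, chr5:71657671-71657970, plus strand: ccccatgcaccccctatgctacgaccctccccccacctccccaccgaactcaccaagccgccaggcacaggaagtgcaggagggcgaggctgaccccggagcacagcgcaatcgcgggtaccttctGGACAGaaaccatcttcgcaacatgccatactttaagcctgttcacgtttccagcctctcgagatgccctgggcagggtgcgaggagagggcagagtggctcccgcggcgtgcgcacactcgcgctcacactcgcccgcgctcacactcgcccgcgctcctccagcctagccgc
Gabrb2, chr11:42420190-42420489, plus strand: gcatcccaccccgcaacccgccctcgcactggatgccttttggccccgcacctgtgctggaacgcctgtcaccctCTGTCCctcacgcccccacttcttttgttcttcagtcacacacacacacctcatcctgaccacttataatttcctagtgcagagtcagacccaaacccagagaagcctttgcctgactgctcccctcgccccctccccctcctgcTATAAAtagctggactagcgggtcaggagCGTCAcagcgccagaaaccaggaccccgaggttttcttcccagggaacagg
Gabra6, chr11:42321023-42321322, minus strand: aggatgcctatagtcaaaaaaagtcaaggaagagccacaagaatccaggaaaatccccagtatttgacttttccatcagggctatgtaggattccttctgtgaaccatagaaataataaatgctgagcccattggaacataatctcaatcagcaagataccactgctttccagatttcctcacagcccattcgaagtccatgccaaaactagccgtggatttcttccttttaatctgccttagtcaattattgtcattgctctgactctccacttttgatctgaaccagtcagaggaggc

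Capitals mark letters of 4 short motifs searched on both strands: the TATA box TATAAA, the core TGACG of the cAMP response element, and the right part GGACAG and left part CAGCACC of RE1, the element bound by the neuronal repressor REST. No capitals overlap between motifs. In the windows shown, Gabrb2 carried the TATA box, the cAMP response core and the right part of RE1, and Gabrb1 carried the right part of RE1. The windows of Gabra4 and Gabra6 held none of the 4. The CG dinucleotide, which is frequent in CpG islands, occurred 12 times in the Gabra4 window shown, 25 in Gabrb1, 11 in Gabrb2 and 2 in Gabra6. The further windows of Gabrb1 and Gabrb2 held 9 each. RefSeq promoters were matched for 29 of the 39 genes (37 windows). Over these windows GGACAG stood in 32.4%, against 22.2% of all 32851 promoter windows of the same length, CAGCACC in 5.41% against 7.14%, TATAAA in 10.8% against 13.6%, and TGACG in 10.8% against 20.8%. The median number of CG dinucleotides was 12 in receptor windows and 7 in all windows.

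The remaining GABA-A subunits were mostly low in both tissues. Gabrd, the delta subunit of receptors outside the synapse, read 414.7 in brain against 16.2 in kidney on 430A, at least 3.99-fold higher, and 147.1 and 21.9 on 430B, at least 1.21-fold. The gamma subunits Gabrg1 and Gabrg3, which anchor receptors at synapses, were not called. The probe set above the floor read 113.6 in brain and 15.4 in kidney for Gabrg1, at least 1.09-fold, and 207.7 and 6.9 for Gabrg3, at least 1.71-fold. Gabre (epsilon) read 132 in brain against 11.4 in kidney, at least 1.27-fold. Gabrp (pi), which is known mainly from tissues outside the brain, read 121 and 140 in brain against 50.7 and 38.5 in kidney, at least 1.16-fold and at least 1.35-fold. Gabrq (theta) read 14.2 in brain and 13.8 in kidney, below the floor in both. The rho subunits Gabrr1 and Gabrr2, known from the retina, read 9.2 and 57.6 in brain against 4.5 and 5.3 in kidney, below the floor on both, as were 6 of the 7 retina genes above. Within the clusters, Gabra2, Gabra4 and Gabrb1 were called and their neighbour Gabrg1 was not; Gabra5 was called and Gabrg3 was not; and Gabra3 was called while Gabre and Gabrq were not. Gabrg1, Gabre and Gabrq were read on 430A alone, with its higher floor, whereas the calls of Gabra2, Gabra3 and Gabra4 came from 430B. On 430A Gabra2 was below the floor, Gabra3 was within 2-fold and Gabrb1 was called. Except for Gabrb1, gene and array cannot be told apart in these contrasts with Gabrg1, Gabre and Gabrq.

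Gabbr1, the GABA-binding subunit of the GABA-B receptor, was higher in brain on 3 of 4 probe sets. These read 1744.2, 867.7 and 421.9 in brain against 66.4, 97.6 and 3.4 in kidney, at least 16.8-fold, at least 8.34-fold and at least 4.06-fold higher. The fourth was below the floor in both, at 80 in brain and 22.4 in kidney.

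Among AMPA receptor subunits, which carry fast excitatory transmission, 3 of 4 genes were higher in brain and the fourth had 1 called probe set. Gria2, whose subunit limits calcium entry through the channel, was called on all 3 probe sets, with 2034, 1440.1 and 558.6 in brain against 0.4, 1.9 and 69.5 in kidney. Those values gave at least 16.7-fold, at least 13.8-fold and at least 5.37-fold. Gria1 read 720.3 and 563.5 in brain against 14.2 and 13.5 in kidney, at least 6.93-fold and at least 5.42-fold. Gria3 read 1167 in brain and 83.1 in kidney on 430B, 3.31-fold, and 251.5 and 33.1 on 430A, at least 2.42-fold. Gria4 split by probe set. One 430B probe set read 1966.6 in brain and 243.2 in kidney, 1.91-fold after centring, whereas another read 557.5 and 15.1, at least 4.59-fold. Its 430A probe set read 135.1 in brain against 38 in kidney, at least 1.30-fold. With signals as deposited, with quantile normalization and with 430B at the 430A scale, Gria4 was called higher in brain, so all 4 AMPA genes were. With the 430A floor used for 430B the count was 2 of 4, and the log2 ratio of Gria3 was 0.56.

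Of the kainate receptor genes 2 of 5 were called higher in brain. The count was 0 of 5 with the floor at the 75th percentile and 1 of 5 with the 430A floor used for 430B. Grik5, a high-affinity subunit that needs a partner to form a channel, read 493.8 in brain against 69 in kidney, at least 4.75-fold. Grik2, one of the channel-forming subunits, read 352.5 in brain against 9.6 in kidney on 430B, at least 2.90-fold, and 104.2 and 1.8 on 430A, at the floor. Grik3 read 219.8 in brain against 5.9 in kidney on 430B, at least 1.81-fold, and 3.4 and 5.7 on 430A, below the floor. Grik1 was below the floor on both probe sets, at 59.6 and 40.8 in brain against 8.2 and 3.3 in kidney. Grik4, the other high-affinity subunit, read 207.8 in brain and 54.5 in kidney. Its log2 ratio was -0.15 after centring and 0.77 with signals as deposited, so its direction depended on the scaling and no call was made under any setting.

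NMDA receptor genes, for the calcium-permeable receptors that need both glutamate and a co-agonist, were higher in brain for 3 of 6. The count was 1 of 6 with the floor at the 75th percentile and also with the 430A floor used for 430B. Grin2b read 509.2 and 440.3 in brain against 28.2 and 0.6 in kidney on 430B, at least 4.19-fold and at least 3.62-fold. On 430A its probe sets read 86.7 and 52.5 in brain against 23.8 and 17.6 in kidney, below the floor. Grin2d was 3.89-fold higher on 430B (957.6 in brain and 58.1 in kidney) and below the floor on 430A (60.1 and 30). Grin2c, the subunit of mature cerebellar granule cells, read 335.8 in brain against 4.7 in kidney, at least 3.23-fold. Grin3a, a subunit that binds glycine, had 387.6, 373.5 and 295.5 in brain against 32.2, 46.3 and 12.5 in kidney, or 2.84-fold, 1.90-fold and at least 2.43-fold; the probe set that represents the gene was the one under 2-fold. Grin2a was below the floor with 61.3 in brain and 5.7 in kidney. Grin3b, the other glycine-binding subunit of this kind, was as deposited the only member with a markedly higher signal in kidney. It read 15.8 in brain and 74.9 in kidney, both below the 430A floor, and with no floor its log2 ratio after centring was -1.40. After centring a Gabrb1 probe set (7.45 in brain and 19.3 in kidney) also read higher in kidney, below the 430B floor. So did Gabrg3 probe sets, at 8.06 in brain against 19.2 in kidney and at 2.05 against 2.8.

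Grid1, a delta receptor subunit that acts mainly in synapse adhesion, read 381.7 in brain and 30.1 in kidney on 430B, 2.99-fold higher, and 53 and 47.7 on 430A, below the floor. It was not called with the floor at the 75th percentile or with the 430A floor used for 430B. Grid2ip read 63.6 in brain and 42.4 in kidney, below the floor.

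Of the metabotropic receptors, Grm4, a group III receptor of parallel fibre terminals in the cerebellum, stood out with 1961.7 in brain and 48.7 in kidney, 9.50-fold higher. Grm7, a presynaptic group III receptor, read 559.6 in brain and 31.2 in kidney on 1 probe set, 4.23-fold, 172.2 and 23.9 on another, at least 1.42-fold, and 55.7 and 1.1 on the third, below the floor. Grm8 was below the floor with 54 in brain and 4.9 in kidney. Grm5, the group I receptor measured, read 804.4 and 331.7 in brain against 0.4 and 4.5 in kidney, at least 6.62-fold and at least 2.73-fold. In group II, Grm3, which is also expressed by astrocytes, read 381.6 in brain against 1.2 in kidney, at least 3.14-fold, and Grm2 read 152.4 and 9.2, at least 1.25-fold.

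**Figure D3:**
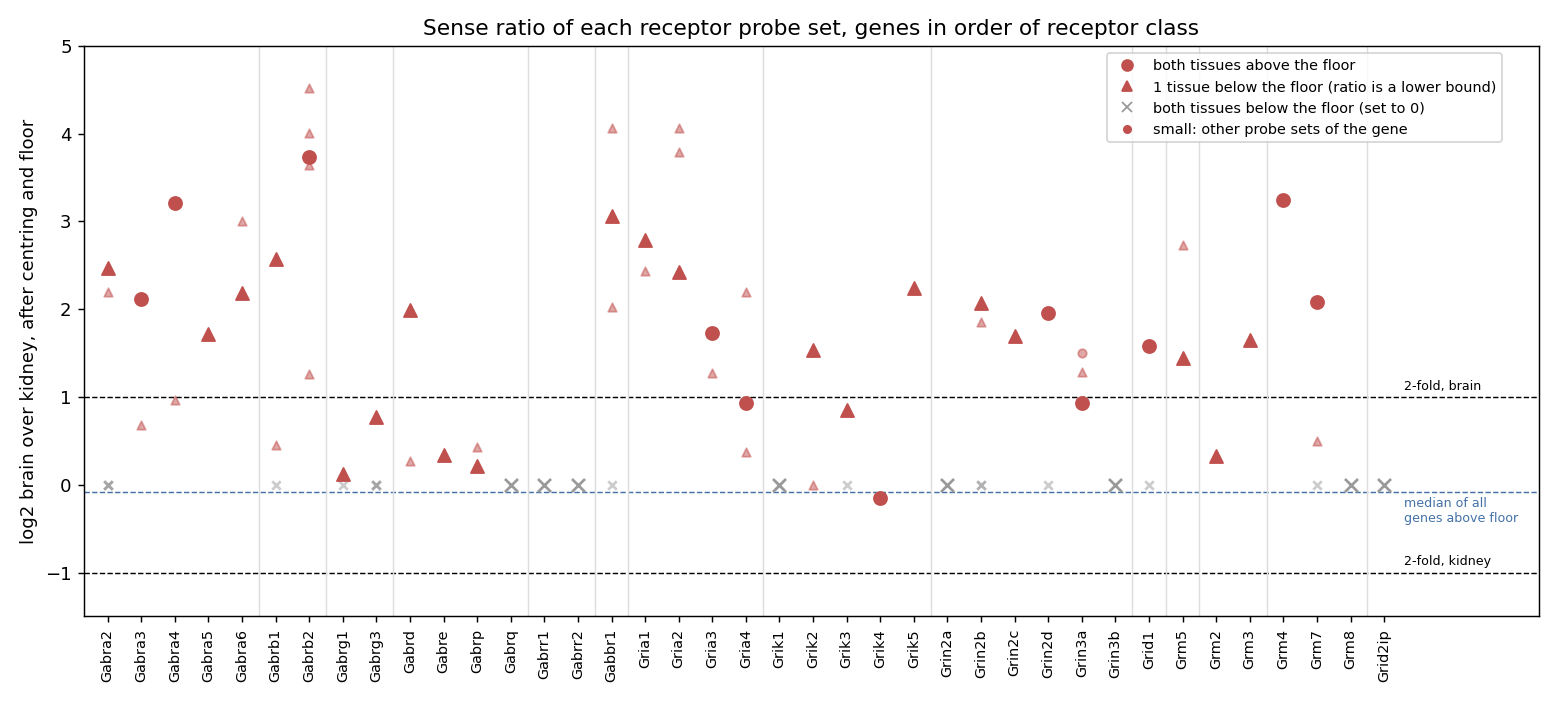
Log2 ratio of brain over kidney after centring and floor (vertical axis) for every receptor probe set, with genes along the horizontal axis by receptor class; large marks are the probe sets that represent a gene, triangles are lower bounds and grey crosses are below the floor in both tissues. Marks above the highest dashed line are 2-fold or more higher in brain, none lies below the lowest, and Gabrb2 reaches 4.52.

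Several of the called genes are known from the cerebellum. Of 11 cerebellum markers 7 were called for brain and none for kidney, beside 12.9% and 18.7% of all genes. The granule cell gene Cbln3 had 2175.8 in brain against 5 in kidney, and the Purkinje cell gene Pcp2 had 934.2 against 5. Pvalb passed narrowly, at 2.05-fold (1397.1 against 1221.2). With signals as deposited 6 of 11 were called for brain, and Calb1 (1747.4 in brain, 4689.5 in kidney) was called for kidney. With no floor 9 were called for brain, and Barhl2 for kidney. Whether the preparation held cerebellum was not tested further. Of 8 forebrain markers 4 were higher in brain, with Neurod2 at 1335.9 in brain and 19.6 in kidney, 2 were within 2-fold and 1 was below the floor. Emx1 was higher in kidney after centring (196.2 and 221.8) but was not called with signals as deposited. With the floor at the 75th percentile 1 of 8 forebrain markers was called for brain and Emx1 for kidney. At that floor 7 of 11 cerebellum markers were called for brain. The part of either region in the receptor values was not tested.

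Agreement among probe sets set the limits of these readings. Of 39 genes, 15 had 1 probe set and 24 had several. Where more than 1 probe set was above the floor (18 genes), 10 genes had a single kind of call and 8 were called on some probe sets and not on others. Those 8 were Gabra3, Gabra4, Gabrb1, Gabrd, Gria4, Grik2, Grin3a and Grm7. Many of these probe sets passed the floor through brain alone, where the ratio after the floor can only point to brain, so their shared direction was not counted as agreement.

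Kidney readings of receptor genes were few. On 430B, 12 probe sets of 11 genes exceeded the floor of 28.6 in kidney, and on 430A none exceeded 186.4. The 430B readings were 243.2 for Gria4, 83.1 for Gria3, 58.1 for Grin2d, 54.5 for Grik4, 48.7 for Grm4 and 46.3 and 32.2 for Grin3a. The remaining ones, for Gabrb2, Gabra3, Grm7, Grid1 and Gabra4, lay between 29.7 and 33.5. The 243.2 of Gria4 was not shared by its other probe sets, which read 15.1 and 38 in kidney. On 430A the highest kidney signals were 97.6 (Gabbr1), 74.9 (Grin3b), 69.5 (Gria2) and 69 (Grik5), over that array's median of 38.8. Detection calls were not used here, so whether these kidney signals exceed background is unknown. Of 5 podocyte markers, the specialised epithelial cells that share some neuronal genes, Podxl was higher in kidney at 106.6 in brain and 1837.5 in kidney, Synpo was higher in brain at 359.4 and 20, and the others were not called. Wt1 read 23.1 in brain and 312.1 in kidney and was called in kidney with signals as deposited, with quantile normalization and with no floor.

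On the antisense arrays few receptor genes could be read. No reverse probe set of U74A and 4 of U74B belonged to them, for Grm3, Gria3 and Gabrp, so 3 of 39 genes (7.69%) had one, against 2830 of all 18193 sense genes (15.6%). The U74B pair was compared as deposited, with a floor of 98.5, the higher of both arrays' 75th percentiles. Of all 2611 reverse probe sets of U74A, none of a receptor gene, 7.97% were called for brain and 1.03% for kidney. Of all 3041 reverse probe sets of U74B, 4.64% were called for brain and 2.07% for kidney. Of the 4 receptor probe sets 1 was called higher in brain, none in kidney, and 2 were below the floor.

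The antisense signal of Grm3 was higher in brain. Its first reverse probe set, with the suffix _s_at, read 218.2 in brain and 23.2 in kidney, a plain ratio of 9.41 and at least 2.22-fold after the floor. The other, with the suffix _r_at, read 53.2 in brain and 5.1 in kidney, a plain ratio of 10.4 with both below the floor. The brain reading of the first stood at percentile 90.4 of its array and the kidney reading at percentile 34.0. Both probe sets derive from 1 expressed sequence tag, so they are not independent, and their suffixes mark probes that may match other transcripts or were picked under relaxed rules. The call held with each pair centred and with quantile normalization, and was lost with the floor at the 90th percentile, where its log2 ratio was 0.03.

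The reverse probe set of Gria3 read 96.8 in brain and 130 in kidney, a log2 ratio of -0.40 with brain just under the floor, so no call was made. That of Gabrp read 7.9 in brain and 5.4 in kidney, below the floor in both.

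Set beside the sense signals, Grm3 was called higher in brain on both strands: its sense probe set read 381.6 in brain and 1.2 in kidney. That probe set and the called reverse probe set passed the floor through brain alone, which fixed the sign of both ratios. Their shared direction was therefore not counted as agreement between the strands. For Gria3 both sense probe sets were called higher in brain, at log2 ratios of 1.73 and 1.27, while the reverse signal was not called. The reverse probe set passed the floor through kidney alone, which fixed the sign of its ratio, so opposite directions of the strands were not established. Gabrp was not called on either strand. Reverse and sense signals come from different probes on different arrays, so their levels were not set against each other. The RefSeq table used here lists no other gene that overlaps Grm3, Gria3 or Gabrp.

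**Figure D4:**
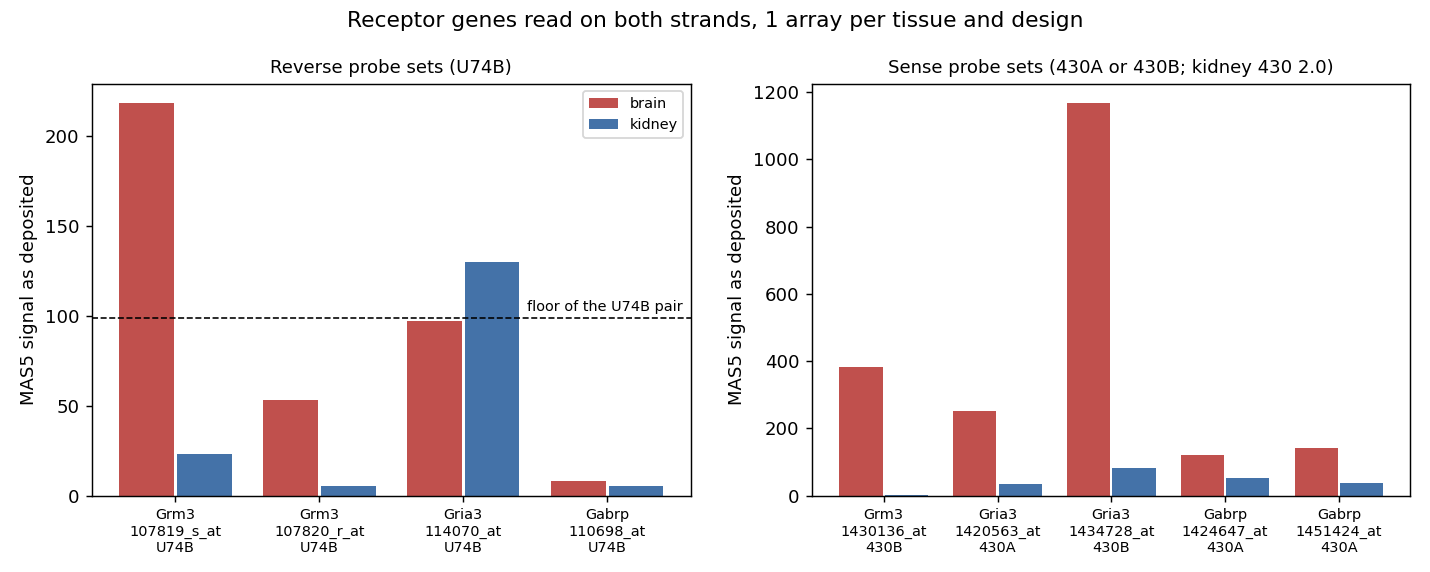
Deposited MAS5 signal (vertical axis, separate scales) of the reverse probe sets of Grm3, Gria3 and Gabrp on U74B at left and of their sense probe sets at right, brain in red and kidney in blue, 1 array each; the dashed line is the U74B floor of 98.5. Of the reverse readings, Grm3 at 218.2 in brain and Gria3 at 130 in kidney lie above the floor.

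The genes that place and supply these receptors were put in lists of their own. The scaffold list overlaps with sets above: it holds Grid2ip, also counted among the receptor genes, and Cbln1 and Cbln3, also counted as cerebellum markers. Of 26 excitatory postsynaptic scaffold genes, 21 stood higher in brain, 0 in kidney; the median log2 ratio over all 26 was 1.88. Camk2a, the kinase of the postsynaptic density, read 3569.1 in brain against 22.6 in kidney, at least 29.4-fold. The synaptic organiser Cbln3 was at least 17.9-fold higher, Dlg2, which tethers NMDA receptors, 11.7-fold, and Dlgap1 at least 11.1-fold. Of 24 auxiliary and trafficking genes of AMPA and kainate receptors, 16 stood higher in brain, 0 in kidney; the median log2 ratio was 1.41. Frrs1l, which acts in AMPA receptor assembly, read 3233.1 in brain against 24.7 in kidney, at least 26.6-fold. The membrane fusion ATPase Nsf was 10.7-fold higher, the AMPA receptor auxiliary subunit Cnih2 at least 9.31-fold and the pentraxin Nptx1 at least 9.09-fold. Of all genes 12.9% were called higher in brain. With the floor at the 75th percentile the counts were 13 of 26 for the scaffold list and 10 of 24 for the auxiliary list.

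Of 21 scaffold and trafficking genes of inhibitory receptors, 6 were higher in brain, 3 in kidney and 10 within 2-fold, beside 12.9% of all genes called for brain and 18.7% for kidney. The median log2 ratio was 0.59, and with the floor at the 75th percentile the counts were 3 for brain and 2 for kidney. Nlgn2, an adhesion protein of inhibitory synapses, was called at least 11-fold higher in brain after centring, with 1145.1 in brain and 175.4 in kidney, a plain ratio of 6.53. Lhfpl4, a partner of GABA-A receptors, was at least 10.6-fold higher. Gabarapl2 was 3.45-fold higher after centring, with a plain ratio of 1.92. Gephyrin (Gphn), the main scaffold at these synapses, read 454.8 in brain and 518.1 in kidney, within 2-fold. Higher in kidney were Kctd12b, 6.70-fold (161.5 in brain and 255.2 in kidney), Rdx, a linker of membrane and actin that binds Gabra5 receptors, 2.47-fold (485.2 and 2150.3), and Plcl1, 2.33-fold (182.1 and 100.2). The direction of Plcl1 turns with the scaling, since its deposited signal is higher in brain. With signals as deposited the kidney calls were Gabarap and Rdx, and with quantile normalization Kctd12b and Plcl1.

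Of 8 genes of GABA synthesis, transport and breakdown, 4 were higher in brain (12.9% of all genes), and none was called in kidney (18.7% of all genes). They were the transporter Slc6a11 at 1797.4 in brain against 4.7 in kidney, at least 14.8-fold, the synthesis enzymes Gad1, at least 9.84-fold, and Gad2, at least 2.20-fold, and the vesicular carrier Slc32a1, at least 3.68-fold. Slc6a13, a GABA transporter also known from kidney, read 55.9 in brain and 322.2 in kidney, within 2-fold after centring and floor, and was called in kidney with signals as deposited and with quantile normalization. Slc6a12, another transporter of the list, read 6 in brain and 70.9 in kidney, below the floor in both. With no floor both Slc6a12 and Slc6a13 were called in kidney. Abat, which breaks GABA down, read 634.7 in brain and 663 in kidney, within 2-fold. The brain count was 2 of 8 with the floor at the 75th percentile and 6 of 8 with quantile normalization.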

How the data were processed

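The values were the deposited intensity of each probe set, computed by the authors with MAS5, per the submitters' processing notes; the scaling target and detection calls are not given in the sources used here. The members and gene lists were chosen with earlier results of these data known. Probe sets were named through GEO's platform annotation where it gives 1 symbol. Brain log2 signals were centred on kidney per sense array, removing -0.84 for 430A and 2.08 for 430B, and the antisense pairs were left as deposited. The amount removed was the median log2 difference over the probe sets above the median in both tissues. The setting with 430B at the 430A scale used the probe sets on both brain arrays instead and removed 0.49 from 430B. The values of 2.08 and 0.49 differ, and which is nearer the offset of the 430B array was not tested. Floors, calls and the representing probe set are as given above. Genes were named by rule: those with a reverse probe set, above the floor in kidney, extreme in their class or mixed in call, and, of the 4 partner lists, the 4 largest ratios and any gene higher in kidney. Gphn, Abat, Slc6a12 and Slc6a13 were added once their values were known. No model was fitted to single arrays, whose number sets the precision. The calling steps were tested on simulated data, in which kidney was the brain array with the noise of the repeat reading and only bright probe sets were changed. It held no difference of array design, so it does not show how reliable calls with kidney below the floor are. Alternatives covered the scaling, the floor, the choice of probe set and leaving out 430B. Promoters came from RefSeq (GRCm38.p6). Python 3.11.15, pandas 2.3.3 and numpy 2.4.6 were used.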

Additional observations from a re-analysis of the deposited data

Results flagged for a closer look

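Gria3 was marked because the log2 ratios of its reverse and sense probe sets have opposite signs. Its reverse probe set read 96.8 in brain and 130 in kidney, a log2 ratio of -0.40, while its 430B sense probe set read 1167 in brain and 83.1 in kidney, a log2 ratio of 1.73. The difference was not tested, since each tissue had 1 array of each design, and the reverse ratio lay within 2-fold. Its brain signal was below the floor, which fixed its sign, so an opposite direction was not established.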

How the results depend on the processing

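No paired analysis was possible because each tissue had 1 array of each design and the labels give no replicate numbers. The count of 22 receptor genes higher in brain became 24 with signals as deposited, 23 with quantile normalization and 24 with 430B at the 430A scale. It was 12 with the floor at the 75th percentile, 34 with no floor, 10 with the 430A floor for 430B and 10 of 30 on 430A only. With no floor 1 gene, Grin3b, was higher in kidney; under the other sense settings there was none. All genes were then called in 33.6% for brain and 25.9% for kidney. The median log2 ratio of 1.73 above the floor moved to 2.03 as deposited, 2.07 with 430B at the 430A scale, 1.01 with the 75th percentile floor, 3.25 with no floor and 1.31 with the 430A floor for 430B. Against this the median of all genes above the floor was -0.08, and 0.29 with 430B at the 430A scale. On the antisense arrays the single brain call became 0 with the 90th percentile floor and 2 with no floor, and the median of 0.37 became 0.033 and 1.89. Floors set how many genes can be called by construction; the cause of the other shifts was not tested. No called receptor gene changed direction under the settings run. Signals near the floor limit the readings, above all in kidney.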

Other observations

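Reverse probe sets of the partner genes were read on the same antisense arrays. On U74A, where 7.97% of all reverse probe sets were called for brain and 1.03% for kidney, the median log2 ratio of all those above the floor was 0.55 with signals as deposited. Pick1, which binds AMPA receptor tails, had 299.8 in brain and 93.1 in kidney on 1 reverse probe set, 3.22-fold as deposited and 1.94-fold with the pair centred, so its call was lost there. Its other one read 24 in brain and 4.7 in kidney, below the floor. Lin7c, a scaffold gene, had 121.8 in brain and 55.5 in kidney and was within 2-fold both as deposited and centred. On U74B Lin7a read 561.6 in brain and 379.5 in kidney, within 2-fold. The other reverse probe sets of the 4 partner lists were below the floor in both tissues.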
